A study of Mus musculus with 13 samples.

Results

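The regions described here are stretches of the mouse genome that are dense in CpG sites and that carried DNA methylation in mouse embryonic fibroblasts (MEF), connective tissue cells that are a usual starting point of reprogramming. They were chosen by the reads of the MEF libraries, as autosomal tiles of 1 kb that held 40 or more CpG positions over all libraries, 20 or more reads in each of the 2 MEF libraries, and a pooled MEF level of 50% or more. A level is the share of reads at CpG sites that were read as methylated. Of 539151 autosomal tiles, 9843 were CpG-dense and covered in both MEF libraries, and 1350 of these passed the 50% threshold. The MEF values chose the members, so high MEF levels are a property of the choice and are given as a description. The 3 members just inside the threshold had pooled MEF levels of 50%, 50.05% and 50.2%, and the 3 dense tiles just outside it had 49.9%, 49.5% and 49.5%.

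Reduced representation bisulfite sequencing (RRBS), which reads methylation at CpG sites near the cuts of a restriction enzyme, had been run on bulk DNA of 13 mouse samples. Induced pluripotent stem cells (iPSC), which are somatic cells returned to a state like that of the early embryo, fell into 3 groups. There were 2 libraries of female XaXa iPSC, in which both X chromosomes are labelled active, 4 of female XO iPSC with 1 X chromosome, and 3 of male iPSC, called XY here. Male reprogramming intermediates sorted for the surface antigen SSEA1, a marker of mouse pluripotent cells that is gained during reprogramming, gave 1 SSEA1+ library and 1 SSEA1- library, and 2 libraries came from male MEF. The iPSC had been depleted of feeder cells. The sources used here give no strain, passage, reprogramming factors or time of the sort, and do not say whether the libraries of a group are separate lines, so p-values measure the spread between libraries only, which may be technical.

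Libraries held between 4784488 reads (XO replicate 9) and 143148634 reads (XaXa replicate 8), counted once at each CpG. Read depth on the X chromosome relative to the autosomes, set against the mean of the XY iPSC, was 1.43 and 1.44 in XaXa iPSC and 0.975 to 1.04 in XY iPSC. Among XO iPSC it was 1.07 in replicate 6 but 1.32, 1.19 and 1.36 in replicates 3, 5 and 9, which goes against a single X chromosome in all cells. MEF replicate 5 is labelled male, but its depth on the X chromosome was 1.25 and its reads on the Y chromosome were 0.0219% of autosomal reads, against 0.0913% in MEF replicate 4. The members are autosomal, and their number was 1346 without MEF replicate 5 and 1421 without MEF replicate 4.

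In mammals, most CpG-dense DNA lies in CpG islands at gene starts and is unmethylated. The methylated remainder of somatic cells includes promoters of germline genes, imprinted regions, where 1 parental copy is methylated, and young retrotransposons such as L1 and IAP elements, in which methylation is known to restrain transcription. In mouse L1 elements, the promoter is built from tandem copies of a short unit. Female pluripotent mouse cells with both X chromosomes active are known to have low methylation genome-wide, and cells with a single X chromosome are known to have more.

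Most members turned out to be copies of a few sequences. The files give 5 letters around each CpG, which covered 24.4% of the bases of the members, and members that shared patterns of 5 neighbouring CpGs with the letters and spacings between them were joined into families. The families were formed from sequence alone, but after the methylation values had been seen. Together 7 families held 1184 of the 1350 members, with 502, 438, 171, 26, 24, 12 and 11 tiles, and 166 members shared no such pattern. None of the 8493 CpG-dense tiles below 50% in MEF held 3 or more patterns of any of the 3 largest families. Tiles with fewer of these patterns were not counted. No repeat annotation of the build was at hand, so the families carry numbers and no names. One short run for each family shows what its members share, read 5′ to 3′ from the deposited letters with CpG sites in capitals (mm9, the build in the submitters' processing notes).
Family 1, chr1:7325032-7325043, minus strand: cCGtcCGgacCG
Family 2, chr1:11719493-11719507, plus strand: ctCGagtCGagCGga
Family 3, chr1:14965631-14965641, plus strand: ccCGcCGgCGc
Family 4, chr1:166154708-166154722, plus strand: agCGgtCGtttCGtg
Family 5, chr1:18068573-18068582, plus strand: gCGggcCGca
Family 6, chr3:93084636-93084646, plus strand: cCGagtcCGgc
Family 7, chr2:15944972-15944984, minus strand: cCGtgtCGgCGac

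The run of family 2 was present in 394 of its 438 members and in 2 other members, and that of family 3 in 162 of its 171 members. These runs are shorter than the patterns and less specific: that of family 3 was found in 178 of all 9843 CpG-dense tiles, and that of family 5 in 88, of which 24 were its own members. That of family 1 was read in 251 of its 502 members, where the letters around all of its CpGs were known. Families 1, 2 and 3 were spread over all 19 autosomes. In family 2, 378 members held 2 or more copies of their pattern, and 571 of 721 distances between neighbouring copies were exactly 208 bases. The same held for family 1 (452 of 563 distances at 212 bases), family 3 (177 of 308 at 206 bases) and family 5 (26 of 33 at 214 bases), so these are tandem repeats. Families 4 and 7 had no second copy in any tile. All 12 tiles of family 6 lay in one block on chromosome 3, between 93084001 and 93097000, while the 11 tiles of family 7 lay on 9 chromosomes. Short reads from near-identical copies cannot be told apart, and the sources used here do not give how reads with several mapping places were treated. The tiles of a family are therefore not independent measurements.

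As a group, the members kept their methylation in SSEA1+ and SSEA1- cells and lost part of it in iPSC, most of all in XaXa iPSC. The median level of the members was 26.0% in XaXa iPSC, 46.1% in XO iPSC, 41.2% in XY iPSC, 84.2% in SSEA1+ cells and 84.7% in SSEA1- cells, against 86.1% in MEF. By library, medians were 30.5% and 20.7% in XaXa iPSC, 48.6%, 40.01%, 51.4% and 40% in XO iPSC (replicates 3, 5, 6 and 9) and 40.1%, 38.4% and 40.2% in XY iPSC (replicates 1, 2 and 4). They were 84.2% in the SSEA1+ library and 84.7% in the SSEA1- library, against 86.0% and 86.3% in the MEF libraries. The order of the XO and XY medians turned with 2 settings, which left different members in the 2 groups. The median was 36.5% in XO and 42.6% in XY iPSC over CpGs with 5 or more reads. With each CpG weighted equally it was 35.9% in XO and 40.7% in XY iPSC. Over the same 821 members, at CpGs with 5 or more reads, the median XO minus XY difference was 4.38 points. Both XaXa libraries lay below every XO and XY library, and every iPSC library lay below all SSEA1 and MEF libraries. Since DNA came from many cells, an intermediate level may stand for partly methylated copies in every cell or full methylation in part of the cells, and these cannot be told apart.

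**Figure D1:**
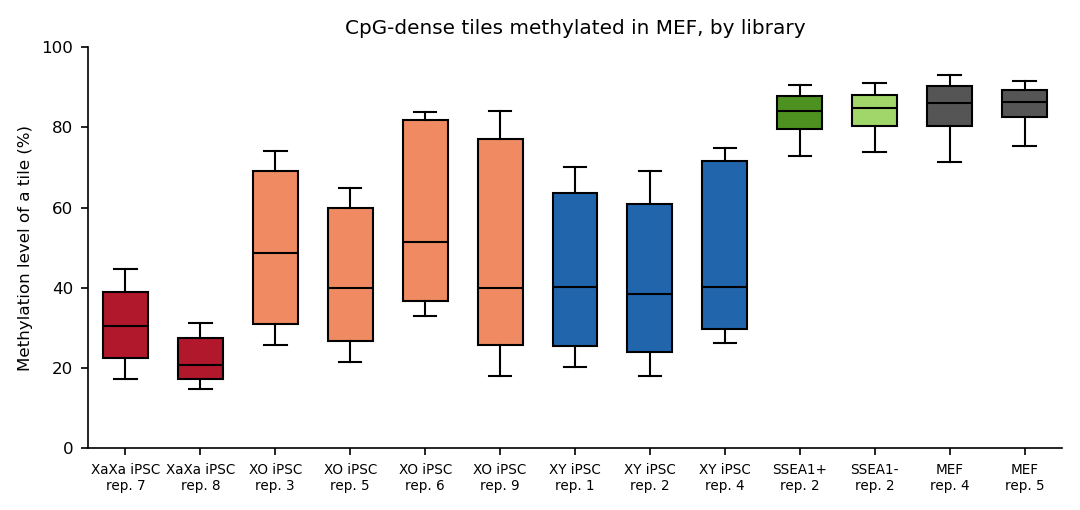
Methylation levels (%) of the members with 20 or more reads in each of the 13 libraries. Boxes span the quartiles with the median, whiskers the 10th to 90th percentile; the 2 XaXa libraries have medians of 30.5% and 20.7%, and the SSEA1 and MEF libraries have medians above 84%.

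MEF-methylated tiles with fewer CpGs had higher levels in iPSC than the members. Among tiles with 20 or more reads in all 13 libraries, the 1296 members had medians of 26.3% in XaXa iPSC, 46.1% in XO iPSC and 41.5% in XY iPSC. The 23919 MEF-methylated tiles with 3 to 39 CpGs had 44.5% in XaXa iPSC, 75.3% in XO iPSC and 75.8% in XY iPSC. In MEF, the medians were 86.2% in the members and 83.1% in the tiles with fewer CpGs. These are descriptions: no test was made between the 2 sets of tiles.

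A member was counted as kept in a group at a mean level of 50% or more, as lost under 20%, and as intermediate between them. In XaXa iPSC 31 of 1348 members were kept and 343 lost. In XO iPSC 576 of 1308 were kept and 71 lost, and in XY iPSC 548 of 1338 were kept and 85 lost. In SSEA1+ cells 1321 of 1343 were kept and 1 lost, and in SSEA1- cells 1319 of 1338 were kept and 2 lost. The levels in XO and XY iPSC had more than a single peak. In XY iPSC 477 members lay between 20% and 30% and 334 between 60% and 70%, with 95 between 30% and 40%. In XO iPSC 233 members lay between 20% and 30%, 298 between 30% and 40% and 406 between 70% and 80%, with 66 between 60% and 70%.

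The peaks followed the sequence families. Family 2 was the large family that stayed methylated: its median was 33.8% in XaXa iPSC, 73.5% in XO iPSC and 67.1% in XY iPSC, against 87.8% in MEF. All 437 of its members with reads were kept in XO iPSC and all 438 in XY iPSC, and none was kept or lost in XaXa iPSC, where they ranged between 20.5% and 49.9%. Family 1, with a like level in MEF, had medians of 20.4% in XaXa iPSC, 30.6% in XO iPSC and 26.9% in XY iPSC, against 85.5% in MEF. Only 3 of its 497 members with reads were kept in XO iPSC and 2 of 502 in XY iPSC. Family 3 was between them, at 28.7% in XaXa iPSC, 49.0% in XO iPSC and 44.9% in XY iPSC, against 85.7% in MEF. In the SSEA1+ library the 3 families had medians of 84.5%, 84.3% and 84.8%, and in the SSEA1- library 84.8%, 84.9% and 86.0%, so the 3 families were alike in the sorted cells.

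**Figure D2:**
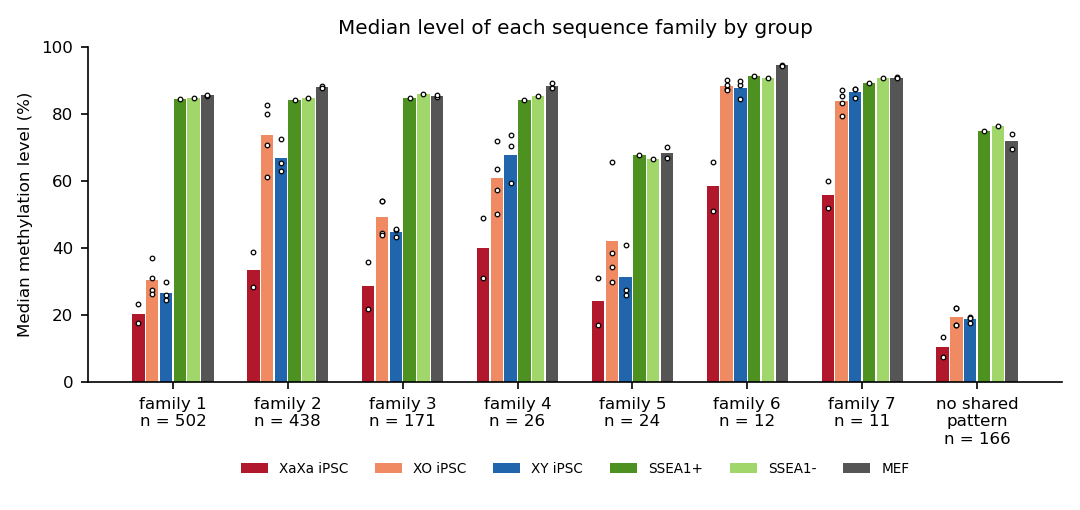
Median methylation level (%) of the members of each sequence family and of the members with no shared pattern, in each group. Bars are the mean of the library medians and circles the single libraries; the XO circles lie between 26.5% and 37.1% in family 1 and between 61.3% and 82.8% in family 2.

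The small families 6 and 7 kept the most. Family 6, the block on chromosome 3, had medians of 58.9% in XaXa iPSC, 87.3% in XO iPSC and 87.7% in XY iPSC, against 94.0% in MEF, and its 12 tiles were kept in every group. Family 7 had 57.4% in XaXa iPSC, 84.3% in XO iPSC and 86.2% in XY iPSC, against 92.2% in MEF. Together they gave 22 of the 31 members kept in XaXa iPSC, with 5 from family 4 and 4 from the members with no shared pattern. Family 4 had medians of 41.0% in XaXa iPSC, 59.9% in XO iPSC and 67.9% in XY iPSC, against 87.5% in MEF. Family 5 had 24.8% in XaXa iPSC, 44.9% in XO iPSC and 33.3% in XY iPSC, against 68.0% in MEF, but only 10 of its 24 members had 20 reads in every XO library. Its XO medians by library were 38.5%, 34.3%, 65.6% and 29.8% (replicates 3, 5, 6 and 9), so replicate 6 stood apart. In XY iPSC they were 27.7%, 25.9% and 41.1% (replicates 1, 2 and 4).

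The 166 members with no shared pattern had the lowest levels in iPSC. Their medians were 10.1% in XaXa iPSC, 20.6% in XO iPSC and 19.9% in XY iPSC, 75% in SSEA1+ cells and 76.4% in SSEA1- cells, against 69.9% in MEF. Of those with enough reads, 120 of 165 were lost in XaXa iPSC, 71 of 145 in XO iPSC and 81 of 162 in XY iPSC. They made up every member lost in XO iPSC, and 81 of the 85 lost in XY iPSC. In XaXa iPSC, 216 of the 343 lost members were of family 1, in which no member was lost in XO iPSC and 3 were lost in XY iPSC. The XaXa median of family 1, 20.4%, lay at the 20% cut, with 23.3% in replicate 7 and 17.6% in replicate 8. This count thus turns on small differences in level.

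Along the repeat unit, single CpG sites differed within a family. In family 1, the site 105 bases from the start of the shared pattern was the lowest in all 6 groups, at 9.83% in XaXa iPSC, 16.4% in XO iPSC, 16.3% in XY iPSC, 62.5% in SSEA1+ cells and 60.3% in SSEA1- cells, against 68.7% in MEF. The highest of the 14 sites in iPSC was at 151 bases, with 41.4% in XaXa iPSC, 49.97% in XO iPSC and 43.1% in XY iPSC. The medians over the 14 sites were 21.6% in XaXa iPSC, 28.8% in XO iPSC and 26.9% in XY iPSC. In family 2 the 10 sites were more alike, between 26.9% and 40.3% in XaXa iPSC, 67.0% and 79.9% in XO iPSC, and 62.0% and 76.4% in XY iPSC. In family 3 the 13 sites ran between 11.4% and 50.9% in XaXa iPSC, 24.2% and 63.7% in XO iPSC, and 19.14% and 55.2% in XY iPSC. No site of families 1 and 3 in XO or XY iPSC came as high as the lowest site of family 2 in the same group.

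**Figure D3:**
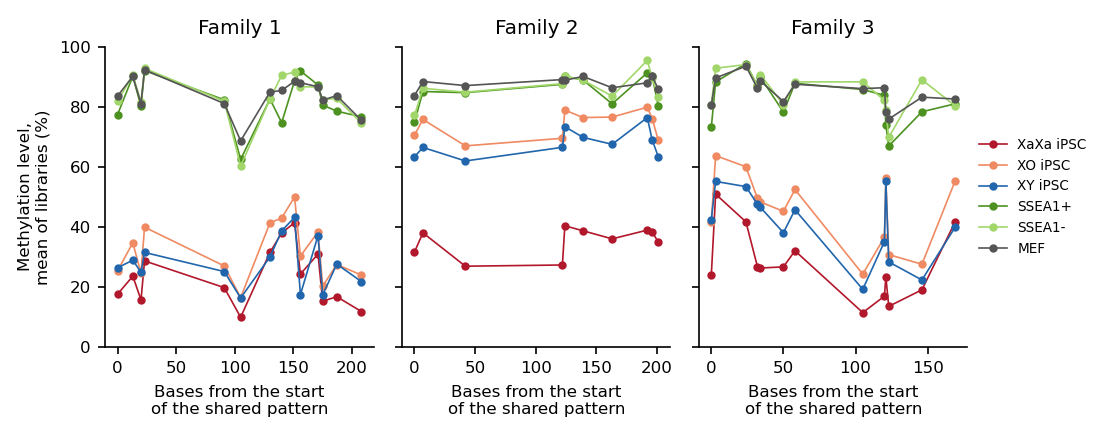
Methylation level (%) at CpG sites by distance in bases from the start of the shared pattern, for families 1, 2 and 3. Points are the mean of the libraries of a group, with 50 or more reads in each library; the site at 105 bases is the lowest of family 1 in every group, and the XO and XY profiles of family 2 lie above 60% throughout.

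XaXa iPSC were compared with the other iPSC as labelled. The labels differ in the number of active X chromosomes, and XaXa and XY iPSC also differ in sex. XO replicates 3, 5 and 9 had X chromosome depths of 1.32, 1.19 and 1.36, against 0.975 to 1.04 in XY iPSC. Differences between the groups can therefore not be assigned to the number of active X chromosomes. A quasi-binomial model was fitted to the reads of all 56238 tiles on autosomes and the X chromosome with 20 or more reads in each of the 9 iPSC libraries. A tile passed at a Benjamini-Hochberg adjusted p under 0.05 and a difference of 10 or more percentage points, and 1306 members could be tested. Of these, 707 were lower and 1 was higher in XaXa than in XO iPSC, with a median difference of -17.9 points. Among all tested tiles 60.6% were lower and 0.0107% higher, with a median difference of -21.9 points, beside 54.1% of the members lower. All tiles include those with little methylation in any group. Among tiles methylated in MEF and with 20 or more reads in all 13 libraries, 703 of 1296 members and 20914 of the 23919 tiles with 3 to 39 CpGs were lower in XaXa than in XO iPSC, with median differences of -17.95 and -27.4 points. Between XaXa and XY iPSC, 565 members were lower and 1 higher, with a median difference of -13.4 points, against 54.1% lower, 0.0622% higher and a median of -20.8 points over all tiles. Without XaXa replicate 8, the deeper library, none of the members and none of the 56238 tiles passed in either comparison, 503 and 411 had an unadjusted p under 0.05, and the median differences were -13.5 and -9.14 points. Without XaXa replicate 7, which was higher in methylation, 695 and 589 members were lower. With every read weighted equally, the counts were 991 and 753 of 1306 members, beside 37203 and 34556 of the 56238 tiles. With 50 or more reads in each library, they were 522 and 417 of 1006 members, beside 3658 and 3153 of 10601 tiles. Whether the members passed more often than all tiles thus depended on the setting. With XO replicate 6 as the only XO library, 761 of 1336 members were lower in XaXa than in XO iPSC. A group left with 1 library is assumed in these fits to vary like the other groups.

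Calls differed in number between families. All 437 tested members of family 2 were lower in XaXa than in XO iPSC, by a median of 39.7 points, and 424 of 437 were lower than in XY iPSC, by a median of 33.4 points. In family 3, 152 of 170 were lower in XaXa than in XO iPSC and 64 of 170 lower than in XY iPSC. In family 1, 34 of 497 were lower than in XO iPSC and 4 of 497 lower than in XY iPSC, with median differences of -10.2 and -6.30 points. All 12 tiles of family 6 and all 10 tested tiles of family 7 were lower in XaXa iPSC in both comparisons. Among members with no shared pattern, 47 of 145 were lower than in XO iPSC and 29 of 145 lower than in XY iPSC. Whether the difference itself differed between families was not tested.

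**Figure D4:**
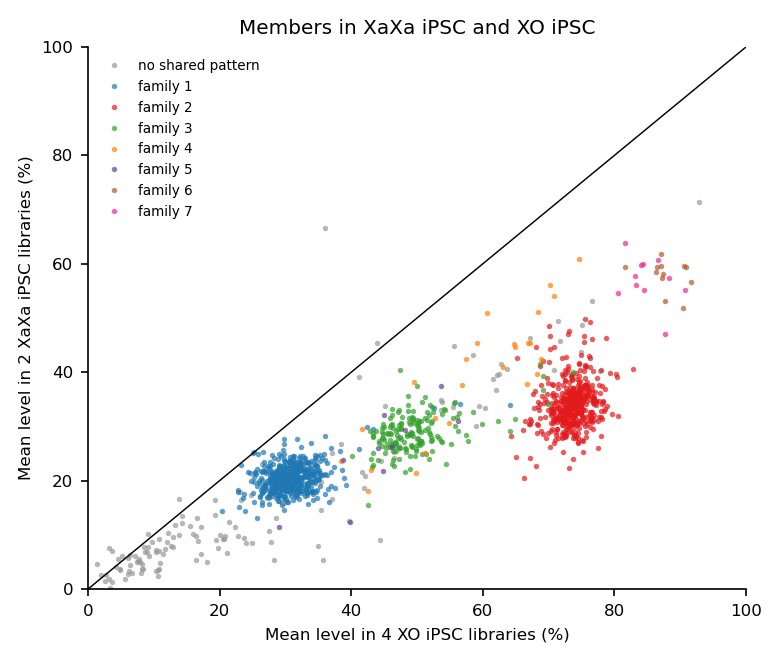
Mean level (%) of each member in the 2 XaXa iPSC libraries against the mean in the 4 XO iPSC libraries, coloured by sequence family, with the line of equal levels. Family 2 forms a cloud at high XO and low XaXa levels, and a single member at 66.7% in XaXa and 36.0% in XO iPSC lies far above the line.

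Among members with 50 or more reads in each iPSC library and no overlap of the groups, the largest differences were in family 2. The tile chr2:21927001-21928000, with 54 CpG positions, had 30.9% and 21.3% in XaXa iPSC, 80.0%, 62.3%, 82.3% and 85.3% in XO iPSC, and 71.2%, 78.2% and 80.3% in XY iPSC. XaXa libraries lay below all others. The difference was -51.4 points to XO iPSC (adjusted p = 0.00288) and -50.5 points to XY iPSC (adjusted p = 0.00334) in the quasi-binomial model. Other family 2 tiles named by the same rule were chr3:45945001-45946000, chr7:91622001-91623000, chr15:35046001-35047000 and chr7:20644001-20645000 against XO iPSC, and chr11:46317001-46318000 and chr7:5227001-5228000 against XY iPSC. Outside the families, chr17:21172001-21173000 had 49.4% and 30.97% in XaXa iPSC, 78.6%, 74.6%, 79.4% and 78.8% in XO iPSC, and 84.6%, 87.9% and 85.2% in XY iPSC. The difference between XaXa and XY iPSC was -45.7 points (adjusted p = 0.00334, quasi-binomial model).

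A single member went the other way. The tile chr11:5907001-5908000 had 70.0% and 63.3% in XaXa iPSC, 40.5%, 55.8%, 12.5% and 35.0% in XO iPSC, and 39.9%, 27.7% and 19.6% in XY iPSC. Its levels were 69.7% in SSEA1+ cells (95% Wilson interval 64.4% to 74.5%) and 60.7% in SSEA1- cells (53.9% to 67.0%), against 71.0% and 64.1% in MEF. Both XaXa libraries lay above all other iPSC, replicate 7 between the MEF libraries and replicate 8 just below them. The difference was 30.7 points to XO iPSC (adjusted p = 0.0177) and 37.6 points to XY iPSC (adjusted p = 0.0105) in the quasi-binomial model. Without XaXa replicate 7 the differences were 27.4 and 34.3 points, and without replicate 8 they were 34.0 and 40.9 points, but neither then passed. With each CpG of the tile weighted equally, the means were 51.8% in XaXa iPSC, 32.3% in XO iPSC and 32.2% in XY iPSC. Its reads numbered 160 and 884 in XaXa iPSC, 232, 163, 3810 and 80 in XO iPSC, and 338, 148 and 1418 in XY iPSC. Median reads of a member were 249 and 2931.5 in XaXa iPSC and 265, 411, 1798.5 and 66 in XO iPSC. In XY iPSC they were 227, 111 and 783. Both XaXa libraries and XO replicates 3 and 5 thus lay below their medians here, and the other iPSC libraries above. The part of depth in the levels of this tile was not tested.

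Between XO and XY iPSC none of the 1306 members and none of the 56238 tiles passed in the quasi-binomial model (0.0% in each direction). At an unadjusted p under 0.05 there were 35 members, and with limma on the log2 scale 0 members passed. The median difference was 4.26 points over the members and 0.181 points over all tiles. With XO replicate 6, the XO library with the X chromosome depth closest to that of XY iPSC, as the only XO library, the median difference over the members was 11.4 points and none passed, in a fit where the spread comes from the other groups only. By family, the median difference was 3.79 points in family 1, 6.36 points in family 2 and 3.901 points in family 3.

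The tiles lowest in XY iPSC all came from the members with no shared pattern. The lowest, chr13:55311001-55312000, had 8.51% and 0.914% in XaXa iPSC, 4%, 1.19%, 0.476% and 0.0% in XO iPSC, and 2.67%, 0.0% and 3.404% in XY iPSC. It had 71.7% in SSEA1+ cells and 80.2% in SSEA1- cells, against 35.8% and 59.9% in MEF. Both sorted libraries lay above both MEF libraries, and every iPSC library was below 10%. The other 7 were chr16:18588001-18589000, chr6:48388001-48389000, chr11:101025001-101026000, chr3:94977001-94978000, chr1:186551001-186552000, chr11:63737001-63738000 and chr15:79659001-79660000. At the other end, chr12:30687001-30688000 was the highest member in XY iPSC and in XaXa iPSC, with 77.8% and 65.2% in XaXa iPSC, 95.2%, 89.0%, 92.6% and 94.4% in XO iPSC, and 92.0%, 91.2% and 91.7% in XY iPSC. It had 95.9% in SSEA1+ cells and 93.0% in SSEA1- cells, against 78.3% and 96.2% in MEF. It passed as lower in XaXa than in XO iPSC, with a difference of -21.3 points (adjusted p = 0.00418, quasi-binomial model). The other 7 highest tiles in XY iPSC were 4 tiles of family 6 and 3 of family 7. The 5 highest in XaXa iPSC were chr12:30687001-30688000, chr11:5907001-5908000 and 1 tile each of families 7, 6 and 4.

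Gene promoters were rare among the members. The annotation at hand is of another build, so the 300 bases around gene starts in RefSeq (GRCm38.p6; 250 before and 50 after the start) were matched to the deposited letters. A promoter was found in 27 of the 1350 members, or 2%, and in 4392 of the 8493 dense tiles below 50% in MEF, or 51.7%. Of the 27 tiles, 18 were among the 166 with no shared pattern. They held the promoters of 3 listed germline genes, Mael, a factor of the piRNA pathway that guards germ cells against retrotransposons, Ddx4, an RNA helicase of germ cells, and Dazl, an RNA-binding protein of germ cells. Another was that of Mcts2, an imprinted retrogene expressed from the paternal copy. No other gene on the fixed lists of germline, imprinted and pluripotency genes and protocadherin clusters was matched to a member. These 4 windows are printed since their genes were on the lists of germline and imprinted genes, with CpG sites in capitals, each read on the strand of the gene.
Mael (chromosome 1, minus strand): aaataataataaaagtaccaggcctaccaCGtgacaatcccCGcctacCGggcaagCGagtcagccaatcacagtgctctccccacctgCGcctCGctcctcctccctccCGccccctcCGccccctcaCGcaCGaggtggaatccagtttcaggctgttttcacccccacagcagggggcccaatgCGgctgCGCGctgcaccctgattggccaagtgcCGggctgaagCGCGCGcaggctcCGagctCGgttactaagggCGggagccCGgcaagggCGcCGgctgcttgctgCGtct
Ddx4 (chromosome 13, minus strand): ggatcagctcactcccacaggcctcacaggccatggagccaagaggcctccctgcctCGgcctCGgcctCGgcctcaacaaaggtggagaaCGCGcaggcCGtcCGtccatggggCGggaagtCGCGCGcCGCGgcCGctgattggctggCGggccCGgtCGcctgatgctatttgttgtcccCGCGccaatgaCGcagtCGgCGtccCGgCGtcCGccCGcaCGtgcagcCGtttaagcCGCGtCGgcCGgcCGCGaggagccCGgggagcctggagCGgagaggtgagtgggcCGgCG
Dazl (chromosome 17, minus strand): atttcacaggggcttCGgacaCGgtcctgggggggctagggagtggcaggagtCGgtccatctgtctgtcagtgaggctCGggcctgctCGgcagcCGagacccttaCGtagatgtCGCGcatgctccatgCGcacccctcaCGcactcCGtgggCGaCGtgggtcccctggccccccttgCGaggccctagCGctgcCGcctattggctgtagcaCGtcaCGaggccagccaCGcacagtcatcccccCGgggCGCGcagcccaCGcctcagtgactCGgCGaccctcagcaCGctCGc
Mcts2 (chromosome 2, plus strand): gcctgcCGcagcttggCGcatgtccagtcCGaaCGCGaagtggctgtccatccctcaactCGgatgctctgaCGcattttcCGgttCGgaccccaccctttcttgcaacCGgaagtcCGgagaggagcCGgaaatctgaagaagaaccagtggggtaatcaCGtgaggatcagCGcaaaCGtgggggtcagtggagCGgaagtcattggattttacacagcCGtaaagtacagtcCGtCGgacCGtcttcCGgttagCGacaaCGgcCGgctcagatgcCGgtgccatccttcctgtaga

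These windows held 24, 38, 28 and 25 CpG sites in the order Mael, Ddx4, Dazl and Mcts2. The motif CACGTG, which reads the same on both strands, occurred once in the window of Mael (from base 28), of Ddx4 (from base 222) and of Mcts2 (from base 160), and not in that of Dazl. Of all 32851 promoter windows of this length 7.15% held it, and of the 8701 with 20 or more CpGs 11.6% did. A match is a description of the letters and not of a bound site.

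The 3 germline tiles had lower levels in iPSC than in SSEA1 cells and MEF. The Mael tile, chr1:168168001-168169000, had 9.88% and 7.50% in XaXa iPSC, 34.8%, 27.8%, 30.3% and 18.3% in XO iPSC, and 23.7%, 25.1% and 35.2% in XY iPSC. It had 77.9% in SSEA1+ cells and 69.3% in SSEA1- cells, against 77.8% and 75.5% in MEF. It passed as lower in XaXa iPSC, with differences of -19.11 points to XO iPSC (adjusted p = 0.00749) and -19.3 points to XY iPSC (adjusted p = 0.0113, quasi-binomial model). The Dazl tile, chr17:50432001-50433000, had 13.4% and 8.15% in XaXa iPSC, 41.3%, 30.1%, 30.1% and 8.33% in XO iPSC, and 27.6%, 19.9% and 32.8% in XY iPSC, with 69.0% in SSEA1+ cells and 70.4% in SSEA1- cells, against 47.0% and 63.3% in MEF. It passed as lower in XaXa iPSC, with differences of -16.7 points to XO iPSC (adjusted p = 0.0232) and -15.98 points to XY iPSC (adjusted p = 0.0431, quasi-binomial model), although XO replicate 9, at 8.33%, lay within the range of the XaXa libraries. The Ddx4 tile, chr13:113442001-113443000, could not be tested, since 1 iPSC library had 15 reads. It had 18.4% and 10.3% in XaXa iPSC, 44.0%, 22.3%, 16.5% and 6.67% in XO iPSC, and 23.4%, 26.7% and 28.1% in XY iPSC.

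Zglp1 is a zinc finger factor of the germline. Its tile, chr9:20871001-20872000, had 22.1% and 10.95% in XaXa iPSC, 26.8%, 21.6%, 20.4% and 24.1% in XO iPSC, and 15.6%, 21.8% and 28.5% in XY iPSC, with 77.2% in SSEA1+ cells and 87.8% in SSEA1- cells, against 94.7% and 85.6% in MEF. The groups of iPSC overlapped, with a difference of -6.71 points between XaXa and XO iPSC (adjusted p = 0.339, quasi-binomial model). The tile with the promoter of Meioc, a meiosis gene, kept more: chr11:102526001-102527000 had 36.1% and 29.9% in XaXa iPSC, 58.8%, 54.2%, 54.4% and 47.3% in XO iPSC, and 53.0%, 55.5% and 49.1% in XY iPSC. The matched Meioc window itself had 1.31% in XaXa, 2.30% in XO and 0.49% in XY iPSC, with as few as 18 reads in a library. The methylation kept in that tile thus lay beside the window. Zglp1 and Meioc were named after their values were seen.

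The Mcts2 tile parted the iPSC by group. In chr2:152512001-152513000 the levels were 1.77% and 2.07% in XaXa iPSC, 2.23%, 10.3%, 0.402% and 0.0% in XO iPSC, and 47.8%, 44.0% and 58.4% in XY iPSC. They were 56.4% in SSEA1+ cells (95% Wilson interval 49.1% to 63.4%) and 73.4% in SSEA1- cells (62.8% to 81.9%), against 53.1% and 71.9% in MEF. All 6 female libraries lay below all 3 XY libraries, and the XY libraries were near the level of MEF. The difference between XaXa and XY iPSC was -48.2 points (adjusted p = 0.00334, quasi-binomial model). That between XO and XY iPSC was -46.8 points and did not pass (adjusted p = 0.108, quasi-binomial model). A tile with the promoter of Commd1, the host gene of the imprinted Zrsr1, was chr11:22872001-22873000, with 14.1% and 9.26% in XaXa iPSC, 1.56%, 2.82%, 41.0% and 16.7% in XO iPSC, and 58.5%, 62.4% and 46.0% in XY iPSC. The difference between XaXa and XY iPSC was -43.9 points (adjusted p = 0.00919, quasi-binomial model), while XO replicate 6 came near the lowest XY library.

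Within the matched promoter windows themselves, 9 of 20 had 20 or more reads in both MEF libraries, and 8 of these 9 were at 50% or more in MEF. They included Mael at 83.3% ± 17.0, Ddx4 at 69.4% ± 27.5, Zglp1 at 84.7% ± 10.6 and Mcts2 at 59.0% ± 0.754 (mean ± SD of 2 MEF libraries). In XaXa iPSC the same windows had 6.42% ± 2.17 (Mael), 10.2% ± 5.30 (Ddx4), 12.5% ± 7.995 (Zglp1) and 2.11% ± 0.385 (Mcts2), also over 2 libraries. In the tiles of Meioc, Epb41l1, Rpl5 and Aqp5 the MEF methylation lay beside the window, which had 8.33%, 0.0%, 0.0% and 6.25% in MEF from at most 60 reads in a library. The Dazl window, covered by few reads, differed from its tile: it had 20% and 25.7% in XaXa iPSC (10 and 284 reads) and 75%, 85.7% and 46.9% in XO replicates 3, 5 and 6 (12, 42 and 143 reads). It had 25%, 0.0% and 50% in XY iPSC (12, 6 and 18 reads), against 100% and 96.2% in MEF (7 and 26 reads).

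**Figure D5:**
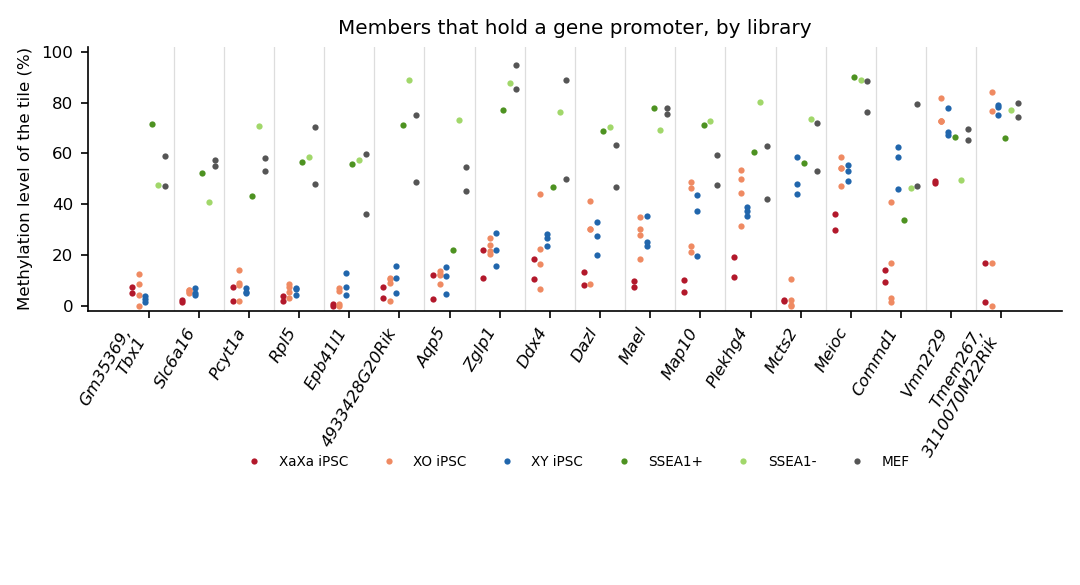
Methylation level (%) in every library of the 18 members outside the families that hold a gene promoter, ordered by the mean in XY iPSC. Each point is 1 library, coloured by group; in the Mcts2 tile the 6 female iPSC libraries are at 10.3% or below and the XY libraries at 44.0% or above.

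Some members differed widely among libraries of 1 group. With 20 or more reads in each iPSC library, the range within a group reached 50 points in 5 members among the XO libraries, in 2 among the XY libraries and in none among the XaXa libraries, and the median range was 16.7 points in XO, 9.34 points in XY and 8.46 points in XaXa iPSC. A range grows with the number of libraries, here 4, 3 and 2, so these values are not comparable between groups. The neighbouring tiles chr5:144015001-144016000 and chr5:144016001-144017000 had 73.2% and 85.6% in XY replicate 1, 82.3% and 79.1% in replicate 2, but 3.51% and 8.68% in replicate 4. Among XO libraries they had 70.6% and 75.1% in replicate 6, while the other 3 replicates were between 0.0% and 22.2%. In MEF the pair had 15.6% and 69.5% in replicate 4 and 69.0% and 82.9% in replicate 5. The tile chr13:120277001-120278000, which matched the promoters of Tmem267 and 3110070M22Rik, had 16.7% and 1.45% in XaXa iPSC, 0.0%, 16.9%, 76.8% and 84.1% in XO iPSC, and 79.1%, 75% and 78.5% in XY iPSC. Its depth differed as widely, with 24 and 482 reads in XaXa iPSC, 26, 71, 16231 and 841 reads in XO iPSC, and 2074, 652 and 3439 reads in XY iPSC, so the low libraries were also the shallow ones. The part of depth in its levels was not tested. These tiles were chosen for their spread, and no test applies.

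Between the sorted cells, members differed little. Over the 1331 members with 20 or more reads in both libraries, the SSEA1+ level minus the SSEA1- level had a median of -0.647 points, with 10th and 90th percentiles of -9.09 and 8.15 points. With 1 library each, the differences have no replicate check. The intervals cover counting error at most, since a read counts at each CpG it covers. In 32 members the 2 levels differed by more than 20 points. With 50 or more reads in both, the largest negative difference was in the Ddx4 tile, chr13:113442001-113443000, at 46.8% in SSEA1+ cells (95% Wilson interval 36.0% to 57.8%) and 76.3% in SSEA1- cells (68.4% to 82.8%). The largest positive difference was in a family 1 tile, chr14:115302001-115303000, at 89.6% in SSEA1+ cells (80.0% to 94.8%) and 61.1% in SSEA1- cells (49.6% to 71.5%). Members under 20% in either library were few: chr11:11925001-11926000 had 2.82% in SSEA1+ cells and 14.5% in SSEA1- cells, and chr7:86855001-86856000 had 75.4% in SSEA1+ cells (57 reads) and 19.15% in SSEA1- cells (47 reads). Both were chosen after their values were seen. The chromosome 11 tile had 4.23% and 6.502% in XaXa iPSC, 8.33%, 13.8%, 57.7% and 63.0% in XO iPSC, and 61.7%, 61.7% and 55.7% in XY iPSC, against 49.3% and 60.6% in MEF.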

How the data were processed

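RRBS had been made from bulk DNA of 13 mouse samples. Alignment was to mm9 with BSMAP, per the submitters' processing notes. The sources used here give neither its version nor the treatment of reads with several mapping places. The deposited files give, for each CpG, the count of all reads and of methylated reads with both strands merged, and their ratio as a fraction made by the authors, which was not used.

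Counts were summed in 1 kb tiles and the level was methylated over all reads. Members, families and gene lists were chosen with earlier results of these data known. Groups follow the labels. Differences were tested in 56238 tiles over 9 iPSC libraries in a quasi-binomial model with a mean for each group, with dispersion moderated by limma (squeezeVar, kept at 1 or above), an F test and Benjamini-Hochberg adjustment over all tiles. With every read weighted equally, the deepest libraries weigh most in a tile. The simulated data were fitted with the weighting below only, so no count of false calls under equal weights is given. The reads of a library were therefore weighted down by an intra-library correlation of 0.0234, so that a very deep library counts for about 42.7 reads in a tile; this was added after the data were seen, and equal weights are given as an alternative. Named tiles are, per comparison and direction, the 5 passing members with the largest difference among those with 50 reads in each iPSC library and no overlap of groups, the 8 lowest and 8 highest in XY iPSC, the 5 highest in XaXa iPSC, the 5 largest SSEA1 differences in each direction, the 3 on either side of the threshold, and members with promoters of listed genes. Promoters could only be matched by letters, 5 per CpG, and this was decided after the data were seen. Positions are 1-based. Reads carry no molecular identifiers and count once at each CpG they cover. Wilson intervals (95%) treat these counts as independent, so they cover counting error at most and may be too narrow. Alternatives changed read minima, CpG weights, thresholds, tests and libraries. Tests ran in R 4.3.3 with limma 3.58.1, and tables were made in Python 3.11.15 with pandas 2.3.3, scipy 1.17.1 and numpy 2.4.6.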

Additional observations from a re-analysis of the deposited data

Results flagged for a closer look

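Among 75 sets of 4 XO values examined (named tiles and family medians), 4 had a library whose gap to its neighbour, as a share of the range, was above the 95% critical value of Dixon's test; chance gives about 1 in 20. In chr17:21172001-21173000 XO replicate 5 was at 74.6%, below the others at 78.6% to 79.4%. In chr7:7230001-7231000, which matched the promoter of Vmn2r29 on 6 CpGs, XO replicate 3 was at 81.9%, above the others at 72.6% to 73.0%. In the chromosome 3 block, XO replicate 9, the shallowest library, was at 97.7% in chr3:93085001-93086000 with the others at 89.0% to 90.2%, and at 76.7% in chr3:93090001-93091000 with the others at 88.9% to 90.6%.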

How the results depend on the processing

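Of the alternative values of the main results, 140 stayed within their limit and 29 moved. The limit was 1.5 times for counts, the SD between replicates for levels, and a Wilson interval for the single SSEA1 libraries. Reversals of direction were not scored for these values. The counts rest most on XaXa replicate 8: leaving out 1 library at a time gave 0 to 853 members lower in XaXa than in XO iPSC, 0 to 589 lower than in XY iPSC, and 0 to 1 higher in either; without replicate 8 the lone XaXa library is assumed to vary like the other groups. Counting only CpGs with 5 or more reads left 821 members and gave 406 and 319 lower, with fewer members tested. With every read weighted equally 1 member was lower in XO than in XY iPSC, 991 were lower in XaXa than in XO iPSC and 753 lower than in XY iPSC. Over all 56238 tiles these counts were 11, 37203 and 34556. Of the 12 largest differences named, none passed without XaXa replicate 8 (adjusted p of 0.0559 to 0.1, where no tile of the genome passed), and 2 did not pass without replicate 7, but all kept their direction: the 10 lower tiles were at -36.5 to -51.4 points without replicate 8.

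The order of the XO and XY medians turned with 2 settings, CpGs with 5 or more reads and the unweighted CpG mean. These medians cover different members in the 2 groups. Over the same 821 members, at CpGs with 5 or more reads, the median XO minus XY difference was 4.38 points. Median levels moved to 36.5% (CpGs with 5 or more reads) and 35.9% (unweighted CpG mean) in XO iPSC, to 42.6% (CpGs with 5 or more reads) and 36.0% (50 or more CpG positions) in XY iPSC, to 84.5%, 84.6% and 84.4% in SSEA1+ cells and to 85.0%, 85.0% and 84.9% in SSEA1- cells (CpGs with 5 or more reads, unweighted mean and MEF level of 60%), and to 86.3% in MEF (unweighted mean). Leaving out 1 library gave 20.7% to 30.5% in XaXa iPSC, 43.8% to 47.4% in XO iPSC and 40.2% to 41.1% in XY iPSC. With 30 or 50 CpG positions there were 2764 or 652 members, 1315 or 240 kept and 183 or 46 lost in XY iPSC. A MEF level of 40% or 60% gave 131 or 54 lost. The cause of these shifts was not tested, beyond the number of tiles that each rule admits. No paired analysis was possible because the groups compared share fewer than 2 replicate numbers. The depth of XO replicate 9, with a median of 66 reads a member, limits the levels there.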
